A study of Mus musculus with 4 samples.

Results

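Primary cilium genes for transport and for the transition zone were examined in the newborn mouse ureter. The set holds 40 genes by rule: intraflagellar transport (IFT) subunits, the BBSome and its chaperonin, ciliary motors and GTPases, and proteins of the transition zone. Its members are all probe sets annotated to exactly 1 gene symbol from that list, which gave 58 of 45101 probe sets for 37 of the 40 genes (the arrays name 18194 genes by such probe sets). Arl6, Arl13b and Rpgrip1l matched no probe set and were not analysed here. Affymetrix MOE430 arrays were used for 3 samples of whole ureter from male FVB/N mice at postnatal day 1 (Theiler stage 27) that carried an SMGA/EGFP transgene (SMGA stands for smooth muscle gamma-actin). The labels do not describe which cells the transgene marks. The reference was 1 array of pooled whole FVB/N mice of the same age and of both sexes, with no transgene listed. Tissue, transgene, sex and pooling therefore differ together between the groups and cannot be told apart, while every RNA sample went through 2 rounds of amplification. The ureter samples were not pooled, but the labels do not tie them to different animals. The p-values therefore cover the spread among 3 samples, and that spread may be partly or wholly technical.

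The primary cilium is a single, non-motile projection of the cell membrane around microtubules that grow from a centriole. Kinesin-2 motors carry IFT-B trains with their cargo toward the tip, and dynein-2 with the IFT-A complex brings them back. The BBSome links membrane proteins to these trains, and the transition zone at the base controls what enters and leaves. Cells use the cilium to sense flow and to read hedgehog signals, and mutations in these genes cause cystic kidneys and other ciliopathies. In the developing urinary tract, cilia are carried by epithelium and by mesenchyme, so a whole ureter mixes several ciliated cell types with smooth muscle.

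Values are quantile-normalized intensities, and differences are log2 ureter minus reference on the scale log2(intensity + 12.23), with the standard error (SE) of a limma fit to all probe sets. Deposited medians were 154, 259 and 187 in ureter replicates 1 to 3 and 332 in the reference, although the trimmed means were equal. The ratio of 3' to 5' signal of the Gapdh control probe sets was 16.6 to 21.6 in the ureters and 19.8 in the reference. For the actin control probe sets it was 2.88 to 4.89 in the ureters and 3.27 in the reference. Replicate 1 had the lowest ureter ratio for Gapdh and the highest for actin. Background was set on each array at the highest of 27 bacterial control probe sets, which was 94.2 to 188 in the ureters and 127 in the reference. As a check of the tissue, 10 of 15 urothelial and 9 of 11 smooth muscle genes passed as higher in the ureters and 0 of either list as lower, and Upk1b, a urothelial plaque gene, differed by 5.65 ± 0.29 (SE). In bulk tissue, fewer cells of a type and less RNA per cell cannot be told apart.

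Most cilium genes lay above the reference in the ureters, but few passed the test. Of the 58 member probe sets, 51 passed the filter on low values. Among these, 3 were higher by limma's adjusted p and 0 were lower. These 3 probe sets belong to Inpp5e, Dync2li1 and Cep290. The references of Inpp5e and Cep290, like that of Bbs5, lay below the lowest level tested (7.14 on the log2 scale), so these 3 probe sets entered the test only through their ureter values. With no filter the Inpp5e and Cep290 calls were lost (limma adjusted p = 0.0543 and 0.0863) and Dync2li1 was the 1 member called. At 5.88% of the tested members, this share is close to the 6.17% called among all 27022 probe sets tested, of which 2.68% were called higher and 3.49% lower. At an unadjusted p under 0.05, 17 members lay above the reference and 0 below, beside 13.2% above and 10.9% below among all probe sets. All 3 ureters lay above the reference at 32 member probe sets (62.7%) and below it at 4, against 39.1% and 29.3% of all probe sets, and the groups overlapped at the other 15. A difference above 0 was found at 40 members (78.4%, against 55.4% of all probe sets). A log2 difference of 1 or more was found at 18 members (35.3%, against 15.9% of all probe sets), and a difference of -1 or less at 0 (against 15.8%). Each of these counts above the reference includes the 3 probe sets that entered only through their ureter values. With no filter, 47 of the 58 members had a difference above 0, against 56.0% of all probe sets.

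The median difference of the tested members was 0.75, beside 0.11 for all probe sets. Taken per gene by the brightest tested probe set, it was 0.98 over 35 members and 0.10 over 13721 genes. By that measure 2 of 35 members were higher and 0 lower, against 7.71% of all genes called either way, and all 3 ureters lay above the reference for 25 and below it for 1, against 39.9% and 30.7% of all genes. Bbs5 and Cep290, which entered the test only through their ureter values, are among the 25. Over all 58 member probe sets, with no filter, the median was 0.76, beside 0.13 for all probe sets. Probe sets as bright as the middle part of the members had a median of 0.17. With the scaling as deposited, the member median was 0.35 against -0.13 for all probe sets, and with median-centred arrays it was 1.08 against 0.60, so the members' median lay above that of all probe sets under each scaling while its size moved with the scaling. Against the 1 reference array, the member medians were 0.80, 0.56 and 0.81 for replicates 1, 2 and 3. For all probe sets they were 0.12, 0.09 and 0.14. The 3 ureters share that array, so these medians are not independent of one another. Since no list was tested as a set, these are descriptions of the list.

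**Figure D1:**
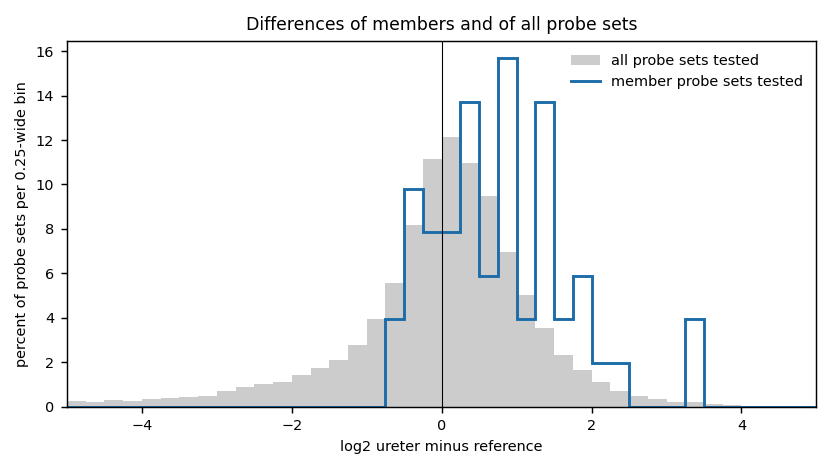
Percent of probe sets (vertical axis) by log2 ureter minus reference (horizontal axis, bins 0.25 wide) for all 27022 probe sets tested (grey) and the 51 tested members (blue line). The members lie between -0.72 and 3.38 with a median of 0.75, while the grey distribution is centred near 0.11 and reaches further to both sides.

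**Figure D2:**
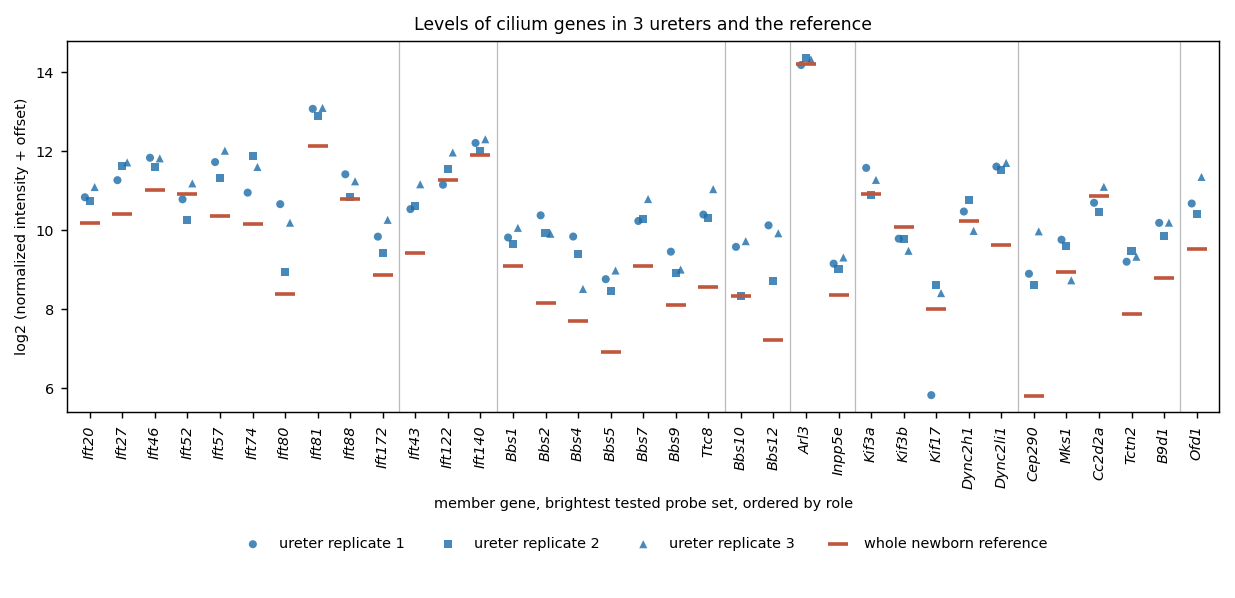
Level of each of the 35 tested member genes by its brightest probe set, as log2 of normalized intensity plus offset (vertical axis), in the 3 ureters (blue symbols) and the reference (red bar), ordered by role with grey lines between roles. All 3 ureters lie above the reference for 25 genes and below it for 1, Kif3b; levels of different genes cannot be compared with one another.

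IFT-B carries anterograde transport, and its genes leaned toward the ureter without passing the test. All 10 were tested and 0 passed, but all 3 ureters lay above the reference for 9 of them. The count was 8 as deposited and 9 with median-centred arrays, where the share of all genes was 32.3% and 58.2%, against 39.9% with quantile scaling. The median difference was 0.93. Ift57, a peripheral subunit, measured 3373, 2565 and 4121 in ureter replicates 1, 2 and 3 and 1291 in the reference. It differed by 1.34 ± 0.40 (limma adjusted p = 0.111), and its lowest ureter was still well above the reference. Ift74, which with Ift81 binds tubulin for the train, gave 1968, 3754 and 3094 against 1125. Its difference was 1.33 ± 0.46 (limma adjusted p = 0.153), with the largest value in replicate 2. Ift81 itself was the most even member: at 1 probe set (1449407_at) the ureters gave 2760, 2513 and 2620 against 1497, an SD of 0.07 on the log2 scale. The brightest Ift81 probe set gave 8605, 7575 and 8744 against 4506 and differed by 0.88 ± 0.27 (limma adjusted p = 0.120).

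Other IFT-B subunits gave smaller or less even differences. Ift27, a small GTPase of the complex, measured 2453, 3129 and 3353 against 1359 at its brightest probe set, a difference of 1.11 ± 0.37. The other probe sets gave 0.86 (1424648_at) and 0.36 (1435736_x_at), the last being -0.0021 as deposited. The brightest and 1435736_x_at are both of the kind that can also bind similar transcripts. Ift172, the longest IFT-B subunit, differed by 0.98 ± 0.49, Ift46 by 0.74 ± 0.33 and the Golgi-linked Ift20 by 0.70 ± 0.38, with no overlap between the groups. Ift88, the gene mutated in the orpk mouse with its polycystic kidneys, lay close to the reference. Its ureters gave 2720, 1823 and 2403 against 1746, a difference of 0.39 ± 0.40 (limma adjusted p = 0.611). Ift52, a core subunit, was the exception in direction, with 1750, 1205 and 2316 around a reference of 1936. Its difference of -0.19 ± 0.47 became 0.50 with median-centred arrays.

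IFT-A, the retrograde complex, had 3 members, of which 0 passed. Ift43 measured 1471, 1547 and 2280 against 669.9 and differed by 1.35 ± 0.43 (limma adjusted p = 0.128). All 3 ureters stood clear of the reference. Ift140 (0.26 ± 0.31) and Ift122 (0.29 ± 0.42), both larger scaffold subunits, lay near the reference, and in Ift122 the groups overlapped. A second probe set of Ift122 gave 0.00, and -0.63 as deposited.

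All BBSome genes lay above the reference. All 7 were tested, 0 passed, and all 3 ureters lay above the reference for every one of the 7 under the quantile, deposited and median-centred scalings, against 39.9%, 32.3% and 58.2% of all genes. The median difference was 1.55 over brightest probe sets (0.98 as deposited). Of the 7 genes, Bbs5 entered the test only through its ureter values, and it is part of these counts and medians. Ttc8, also known as Bbs8, measured 1335, 1257 and 2092 in the ureters and 368 in the reference. The difference of 2.01 ± 0.46 just missed the threshold (limma adjusted p = 0.0602). Bbs2, which forms the head of the complex with Bbs7, gave 1317, 958 and 949.6 against 273, a difference of 1.91 ± 0.43 that also just missed (limma adjusted p = 0.0591). The ureters of both genes stood far from the reference relative to their own spread. When all probe sets of each gene were averaged, which tests fewer features, both genes passed (limma adjusted p = 0.0249 for Bbs2 and 0.0267 for Ttc8). Neither gene had a further probe set to average, so their differences stayed at 1.91 and 2.01. Under the other alternatives the adjusted p ran from 0.0582 to 0.194 for Bbs2 and from 0.0518 to 0.210 for Ttc8.

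Bbs5, a subunit with lipid-binding domains, measured 422, 342 and 492, while the reference at 109.5 was not above background. Its ureter level lay at least 3.07-fold above the reference, which did not pass (limma adjusted p = 0.101). Here "at least" sets the mean of the ureters against the background of the reference array. Bbs4, which BBSome assembly adds late, gave 904, 666 and 353 against 196 at its brightest probe set and thus varied between ureters (1.55 ± 0.62). Another probe set of Bbs4 had 215, 248 and 309 against 179, a smaller difference of 0.48 ± 0.56 that was -0.27 as deposited. Bbs7, a partner of Bbs2, measured 1192, 1231 and 1757 against 531 (1.35 ± 0.43, limma adjusted p = 0.128). Bbs9, a scaffold subunit, gave 690.4, 467 and 501 against 263 (1.02 ± 0.48, limma adjusted p = 0.261). Both had every ureter above the reference without passing, as did Bbs1, which binds the recruiting GTPase Arl6 (0.75 ± 0.42).

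The chaperonin-like proteins that assemble the BBSome were less even between ureters. Bbs12 measured 1103, 409 and 958 in replicates 1, 2 and 3 and 138 in the reference. The difference was 2.36 ± 0.66 (limma adjusted p = 0.0954), and replicate 2 stood well below the other two ureters. Without replicate 2 Bbs12 passed (2.85, limma adjusted p = 0.0278), the low end of a range that reached 0.273 without replicate 3. Bbs10 showed the same order of ureters at both probe sets. The brighter gave 752, 309.7 and 833 against 313, so that replicate 2 lay level with the reference, and the difference was 0.86 ± 0.66 (limma adjusted p = 0.485).

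Among the GTPases and lipid phosphatase, Inpp5e passed at 1 of its probe sets. It encodes the phosphatase that keeps the ciliary membrane low in a phosphoinositide, and it is mutated in Joubert syndrome. At probe set 1423229_at the ureters measured 404, 459 and 543, and the reference at 33.6 was not above background. The level was at least 3.44-fold higher in the ureters (fitted difference 3.38 ± 0.54, limma adjusted p = 0.0242). The brighter probe set, 1423230_at, gave 557, 506 and 622 against 314, a difference of 0.81 ± 0.44 (limma adjusted p = 0.326). The ureters lay above the reference at both probe sets, by amounts that differed, and levels of different probe sets are not on 1 scale. The call at the dimmer one was lost as deposited (adjusted p = 0.0753) and with no filter on dim probe sets (0.0543), and without replicate 3 it was not tested. Arl3, the GTPase that releases lipid-anchored cargo such as Inpp5e inside the cilium, was bright and even. It measured 18580, 21159 and 20523 against 18851, a difference of 0.09 ± 0.20 (limma adjusted p = 0.834).

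Of the 5 motor genes, 1 passed. Dync2li1, the light intermediate chain of the retrograde motor dynein-2, measured 3117, 2913 and 3320 in the ureters and 785 in the reference. The ureters stood close together and far above the reference, and the gene passed as 3.92-fold higher (1.97 ± 0.35, limma adjusted p = 0.0310). The call was lost without replicate 3 (adjusted p = 0.159), without replicate 1 (0.05002), with median-centred arrays (0.0597) and with no intensity trend (0.0614). Dync2h1, the heavy chain of the same motor, did not pass: it gave 1409, 1732 and 999 against 1191, with replicate 3 below the reference. Its difference was 0.18 ± 0.45 (limma adjusted p = 0.859) and -0.02 as deposited. A difference between the 2 subunits was not tested, since probe sets of different genes are not on 1 scale.

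Kinesin-2 genes, which drive anterograde transport, lay around or below the reference. Kif3a had 4 tested probe sets on both sides of 0. The brightest gave 3045, 1878 and 2464 against 1913 (0.33 ± 0.41), and another gave 936, 784 and 1116 against 1547 (-0.72 ± 0.41), the lowest difference of any tested member. The others gave 1791, 1768 and 2411 against 1756 (0.16 ± 0.39), and 285, 301 and 448 against 449.6 (-0.40 ± 0.52). Kif3b, its partner in the heterotrimeric motor, had 4 tested probe sets between -0.60 and -0.25, all without passing. The one at -0.60 (1450073_at) had a ureter mean below the lowest level tested and was above background in 1 ureter. It entered the test only through its reference value. At the brightest the ureters gave 870.2, 871 and 701 against 1079 (-0.41 ± 0.41), which became 0.06 with median-centred arrays. Kif17, the homodimeric motor known mainly from neurons and photoreceptors, was weak: its brightest probe set gave 44.4, 379 and 327 against 246. Replicate 1 was below background there, and the difference was -0.40 ± 1.17, or 0.48 without that replicate.

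Cep290 was called in the transition zone group. It encodes the protein that links microtubules to membrane there and is mutated in Joubert and related syndromes. The ureters measured 464, 376 and 991, with replicate 3 highest, and the reference at 43.98 was not above background. The level was at least 4.10-fold higher (fitted difference 3.34 ± 0.68, limma adjusted p = 0.0446). This call was lost without replicate 1 (adjusted p = 0.0549) or 3 (0.147), as deposited (0.0960), with an offset of 50 (0.0529), without the filter (0.0863) and with no intensity trend (0.0726). Tctn1 also had a reference not above background. Its ureters gave 429.5, 314 and 147 against 41.1, at least 2.04-fold above the reference, and it was too dim to be tested. Tmem67, the receptor-like meckelin, was at 120.4, 65.5 and 15.6 against 34.2, above background in 1 ureter alone, and was not tested either.

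The MKS complex, which forms the barrier of the transition zone, was uneven. Tctn2 measured 577, 694 and 631 against 223, even between ureters and well above the reference (1.46 ± 0.44, limma adjusted p = 0.113). B9d1 gave 1153, 907 and 1157 against 430.1 (1.28 ± 0.41, limma adjusted p = 0.130). Mks1, a B9-domain partner of B9d1, gave 855, 762 and 413 against 484, with replicate 3 below the reference, a difference of 0.41 ± 0.55 that was -0.07 as deposited. Cc2d2a, another member, gave 1644, 1386 and 2180 around 1863 (-0.13 ± 0.42, or 0.54 with median-centred arrays). Ofd1, an X-linked gene for a centriole protein, measured 1624, 1354 and 2596 against 725 (1.29 ± 0.48, limma adjusted p = 0.176), all above the reference.

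**Figure D3:**
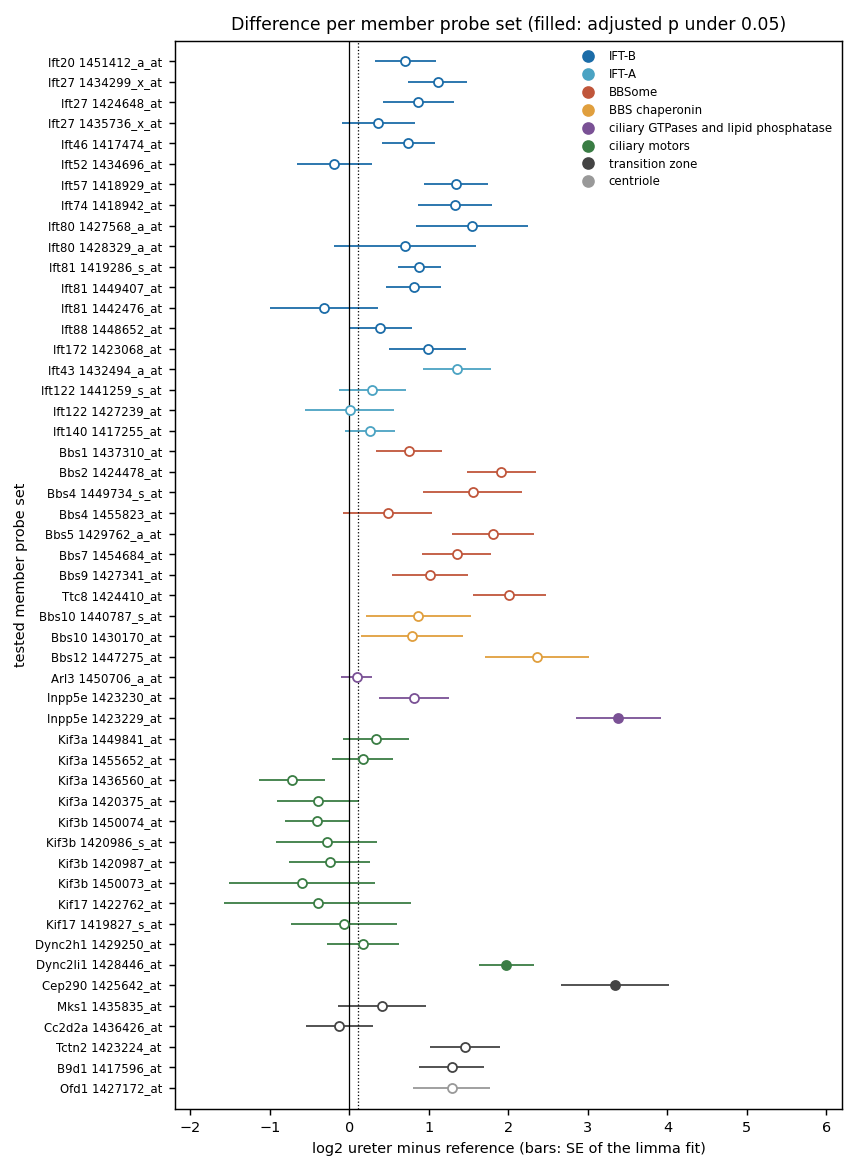
Log2 ureter minus reference (horizontal axis) with the SE of the limma fit for each of the 51 tested member probe sets, coloured by role, with filled points for adjusted p under 0.05 and a dotted line at the median of all probe sets (0.11). The 3 filled points are Inpp5e (3.38), Dync2li1 (1.97) and Cep290 (3.34); the 10 kinesin-2 probe sets lie between -0.72 and 0.33.

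The promoter windows of the members were also searched for motifs. Whether these motifs bear on the differences was not tested. RFX transcription factors, which switch on ciliary genes, bind the X-box, an imperfect inverted repeat. RefSeq promoter windows (build GRCm38.p6, from 250 bases before to 50 after a transcript start) were found for 35 of the 40 genes, 37 windows in all. The X-box with a spacer of 0 to 3 bases, searched by its consensus on both strands, was found in 5 of these windows (13.5%), against 1.53% of all 32851 windows. With the spacer held at 2 bases it was in 4 windows (10.8%, against 0.691%). An AT-centred form of the X-box was in 2 windows (5.41%, against 1.86%). The core GTTGCC, searched on both strands and overlapping the full X-box, was in 16 windows (43.2%, against 12.5%). The stretches of 30 bases that hold the full matches are printed from 5' to 3' along the gene, with the match in capitals; the first 6 hold the consensus X-box and the last 2 the AT-centred form.
Ift57 (chr16:49699199-49699228, + strand): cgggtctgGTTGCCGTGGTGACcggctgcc
Ift57 (chr16:49699226-49699255, + strand): gccctgcgGTTGCCTGGTAACggtggggac
Bbs1 (chr19:4906605-4906634, - strand): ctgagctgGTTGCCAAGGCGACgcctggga
Kif17 (chr4:138262170-138262199, + strand): tcacggagGTTGCCCAGCAACggcgaacgc
Tctn1 (chr5:122264411-122264440, - strand): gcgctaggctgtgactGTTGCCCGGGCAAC
Tctn2 (chr5:124598679-124598708, + strand): gattggagGTTACCATGGCTACtggtcctc
Bbs12 (chr3:37312431-37312460, + strand): gacaggcgGTTGCTATAGCAGCgctcagcg
Dync2h1 (chr9:7177022-7177051, - strand): gtgaagcgGTCGCCATAGCGACggagcttg

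The tested genes with a full match spanned small and large differences. They ranged from Kif17 (-0.40) and Dync2h1 (0.18) over Bbs1 (0.75), Ift57 (1.34) and Tctn2 (1.46) to Bbs12 (2.36), and 0 of these passed. The 14 tested genes with the core in their window had a median difference of 0.87, and the 17 tested genes without it had 1.02. The windows of Inpp5e and Cep290 held none of these motifs, which says only that these letters are not in those windows. Dync2li1, Ift80, Ift81, Ift122 and Tmem67 had no window and were not searched.

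Members with several probe sets showed how far a gene's value depends on the probe set. Several probe sets were tested for 10 genes, and Kif3a and Ift81 had them on both sides of 0. The third Ift81 probe set, the dimmest, gave 114, 122 and 156 against 164 (-0.32 ± 0.68), below the reference where both brighter ones lay above it. Ift80, an IFT-B subunit mutated in skeletal ciliopathies, had a pair that ordered the ureters differently. At 1427568_a_at the ureters gave 1606, 483 and 1155 against 324 (1.54 ± 0.70), and at 1428329_a_at they gave 229, 1231 and 597 against 337 (0.70 ± 0.89). Replicate 1 was thus the highest ureter at the first and the lowest at the second, and replicate 2 the reverse. Over all tested members the SD between ureters ran from 0.07 at Ift81 to 1.55 at Kif17, with a median of 0.33, beside 0.36 for all probe sets.

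**Figure D4:**
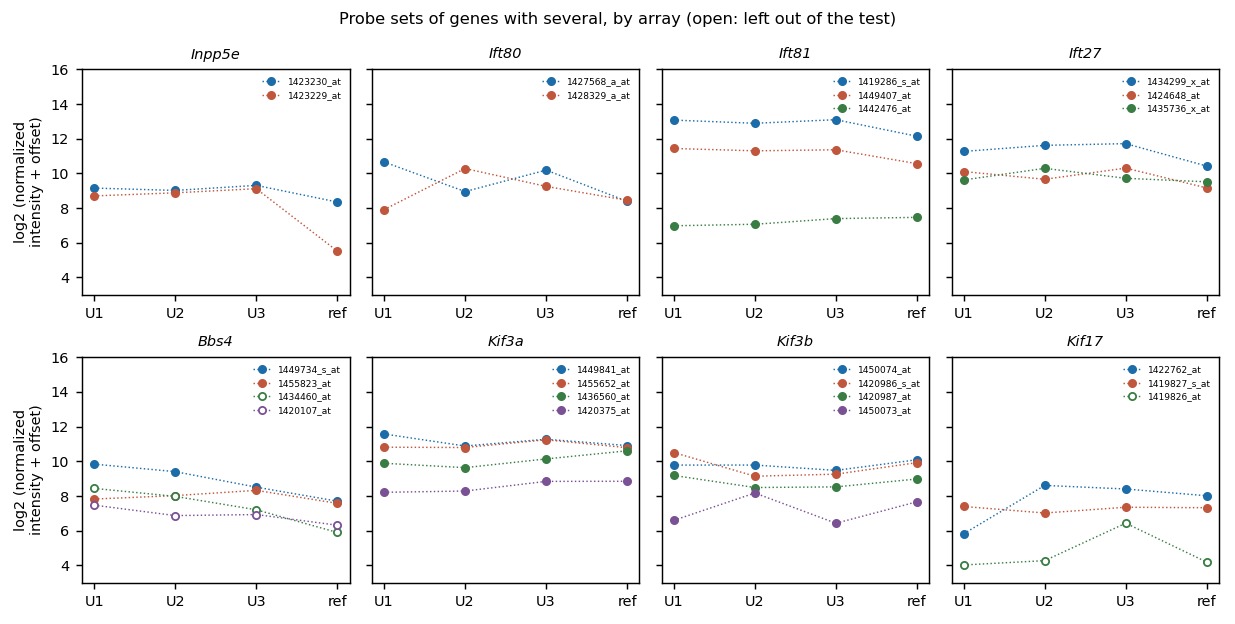
Log2 level (vertical axis) in ureter replicates 1 to 3 (U1 to U3) and the reference (ref) for 8 members with several probe sets, 1 colour per probe set, open where it was left out of the test; dotted lines join the values of 1 probe set and imply no order. The 2 Ift80 probe sets cross between replicates 1 and 2, and both tested Inpp5e probe sets have all 3 ureters above the reference.

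Markers of the neighbouring kidney, whose tubules are ciliated, differed between the ureters. The summed intensity of 10 kidney tubule genes was 2152 in replicate 1, 22558 in replicate 2 and 14456 in replicate 3, against 10174 in the reference. Of the 9 kidney tubule genes tested, 0 were higher and 0 lower, with a median of -0.55. Calb1 alone gave 369, 11178 and 8386 against 2357, a large part of the sums in replicates 2 and 3. The same order of ureters was found at 6 of the 51 tested members (11.8%, against 19.5% of all probe sets): Ift74, Arl3, Tctn2, and 1 probe set each of Ift27 (1435736_x_at), Ift80 (1428329_a_at) and Kif17 (1422762_at). Of the called members, Inpp5e was lowest in replicate 1, and Dync2li1 and Cep290 were lowest in replicate 2. In replicate 1 the 3 called probe sets lay above the reference, at 404 against 33.6, 3117 against 785 and 464 against 43.98. They were picked for being higher in the ureters, replicate 1 included, so this position was largely set by the selection. The part of kidney RNA in the members' values was not tested. The neuron list, another ciliated cell type, summed to 7357 to 8901 in the ureters and 51865 in the reference, with 5 of 13 genes lower and a median of -2.85. Its part in the members' values was not tested. Photoreceptor genes summed to 1632 to 2185 against 1825, and 7 of 13 were not above background on any array. The 10 male germ cell genes summed to 569 to 747 against 558, and 0 were bright enough to be tested.

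Cilium genes outside the set were read from lists by role. Of 43 other transport and transition zone genes tested, 1 was higher and 0 lower, against 2.94% of all genes called higher and 4.77% lower, with a median of 0.49. The higher one was Rpgr, which encodes a transition zone protein of photoreceptors and other cells, at 803, 1268 and 1202 against 167 (2.59 ± 0.47, limma adjusted p = 0.0322). Dynll1 (0.03) and Kifap3 (-0.05), the adaptor of Kif3a and Kif3b, were closest to 0. Ahi1 lay furthest below the reference, at 820, 942 and 757 against 2287 (-1.44 ± 0.39), without passing. With averaged probe sets it passed as lower (-1.94). Of 35 basal body and centriole genes, 3 were higher and 0 lower, with a median of 0.67. They were Sclt1, a distal appendage protein (2.69 ± 0.48, limma adjusted p = 0.0312), Pcm1 of the centriolar satellites (1.66 ± 0.33, 0.0420) and the centriole duplication kinase Plk4 (1.61 ± 0.31, 0.0392), while Cep131 (-0.02) and Ccp110 (-0.0025) were closest to 0. Of 17 ciliary signalling genes 0 passed, with a median of 0.60, and Iqce (0.09) and Prkar1a (-0.26) were closest to 0.

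Motile cilium genes included calls in both directions. Of 18 tested, 1 was higher and 1 lower, with a median of -0.20, and the 38 genes with a probe set summed to 7356 to 8262 in the ureters against 10896 in the reference. Tppp3, a tubulin-binding protein gene, was lower, at 1051, 1340 and 1025 against 4505 (-1.98 ± 0.39, limma adjusted p = 0.0398). Tppp3 is part of these sums, and its gap is about as large as theirs, so the sums do not show that the other genes of the list were lower. Rsph4a, which encodes a radial spoke head protein, was higher: 1365, 809 and 981 against a reference of 120.04 that was not above background, at least 7.48-fold (limma adjusted p = 0.0251). That reference lay below the lowest level tested, so the probe set entered the test only through its ureter values. The call was kept with no filter. Ccdc39 (-0.06) and Rsph1 (0.08) were closest to 0. Of 7 ciliogenic transcription factor genes tested, Glis3 was higher (2.49 ± 0.46, limma adjusted p = 0.0349). Myb, which blood progenitors also express, was lower (-3.86 ± 0.45, limma adjusted p = 0.0129). The tested RFX genes did not pass: Rfx1 (1.07), Rfx7 (0.82) and Rfx5 (0.22) lay above the reference and Rfx3 (-0.95) below it. The 17 cell cycle genes tested, read because cells resorb the cilium before division, had a median of 0.10 with 0 higher and 0 lower, Top2a (-0.03) and Plk1 (0.10) being closest to 0. Without ureter replicate 3, 0 genes of the transport, centriole, signalling and motile lists passed, and 10 passed without replicate 2.

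**Figure D5:**
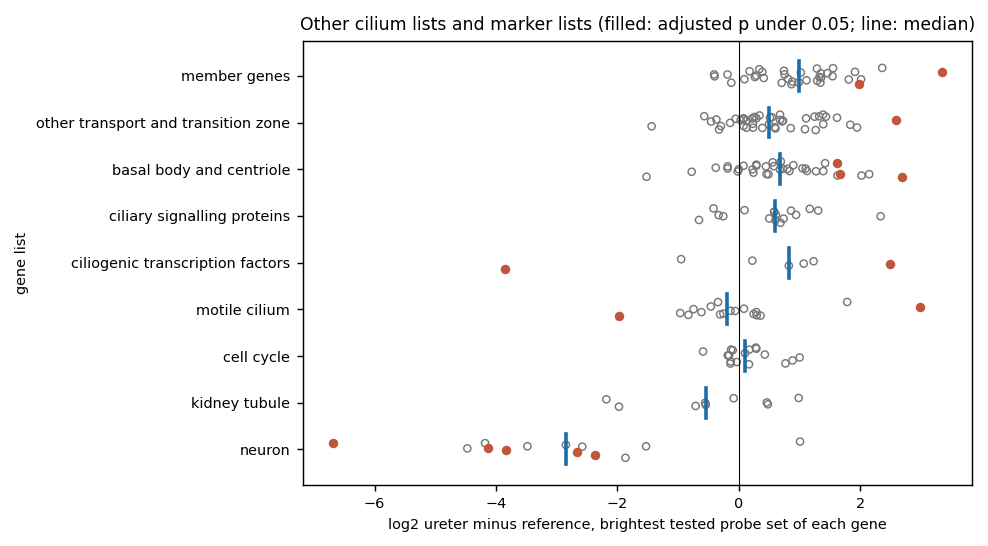
Log2 ureter minus reference (horizontal axis) of each tested gene by its brightest probe set, for the 35 member genes and 8 other lists (vertical axis); red filled points had an adjusted p under 0.05 and blue lines are medians. Medians were 0.98 for the members, 0.49, 0.67 and 0.60 for the other transport, centriole and signalling lists, -0.20 for motile cilium genes and -2.85 for neuron genes.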

How the data were processed

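The authors deposited linear intensities, which they made with GCOS (no version named) per the submitters' processing notes; how background was handled: not given in the sources used here. Trimmed means (2% at each end) were equal on all 4 arrays. Members and gene lists were chosen with earlier results of these data known. The arrays were quantile normalized and taken as log2(intensity + 12.23), the 10th percentile of all values, so folds of dim probe sets are understated. Of 45101 probe sets, 64 controls and then the dimmest 40% by the mean of the group means were left out, leaving 27022. Ureters (n = 3) and reference (n = 1, assumed to vary like the ureters) were compared with limma 3.58.1 in R 4.3.3 (lmFit, eBayes with intensity trend, 2 residual degrees of freedom), two-sided, Benjamini-Hochberg adjusted over all probe sets tested, threshold 0.05, after a test on simulated data. The number of arrays limits the precision.

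Gene names came from the annotation of the platform (34958 with 1 symbol, 932 with several, 9160 other than controls with none), and 37 member genes matched RefSeq with 0 symbols changed. Values in every array are given for tested members past the threshold, with an absolute difference of 1 or more, or with tested probe sets on opposite sides. The other member values were chosen after they were seen. Ift57 1446696_at (1.58) and Bbs4 1434460_at (1.98), whose references were not above background, were too dim to be tested. In the other cilium, transcription factor and cell cycle lists, up to 4 called genes with the largest and 2 others with the smallest change are named. Ahi1, Rfx1 and Rfx3 were added after their values were seen. The marker lists of other cell types are given by counts and sums, without the names the rule allows, except Upk1b and Calb1, the latter chosen after its values were seen. Markers of fibroblasts were also read: 4 of 10 were higher and 0 lower. Alternatives were the scaling, the offset, the filter, the trend, averaged probe sets and each ureter left out. The motif patterns were chosen with results known, and a further short variant that was tried is left out.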

Additional observations from a re-analysis of the deposited data

How the results depend on the processing

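The reference was 1 array, so its own spread is unknown, and each dim reference value carries its calls. No paired analysis was possible because the reference has 1 array and shares no numbered pairs with the ureters. The 3 called member probe sets became 1 as deposited, with no filter or with no intensity trend. The 2 called member genes became 1 as deposited, with median-centred arrays, an offset of 50 or no filter, 0 with no intensity trend, and 5 with averaged probe sets. Leaving out 1 ureter gave 0 to 4 member probe sets and 0 to 3 member genes, with 0 of either lower. The member median of 0.75 became 0.35 as deposited and 1.08 with median-centred arrays (0.62 to 0.86 without 1 ureter). Over all probe sets, 1667 calls became 1075 with no filter and 904 with no trend (317 to 2135 without 1 ureter); those higher, 725, became 444 as deposited, 401 with no filter and 269 with no trend (48 to 928), and those lower, 942, ranged over 269 to 1207 without 1 ureter and reached 1297 with an offset of 50. The 43.5% of calls that were higher became 33.5% as deposited, 29.8% with no intensity trend and 15.1% without replicate 3. The 6 calls in the other transport, centriole, signalling and motile lists became 3 with median-centred arrays and 1 with no filter or no trend. They became 13 with averaged probe sets (0 to 10 without 1 ureter). The 1 lower among them became 0 with median-centred arrays, no filter or no trend (0 to 2 without 1 ureter). With averaged probe sets, Ahi1 and Tppp3 were lower.

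Members that changed sign were not called under any setting. As deposited, Ift27 1435736_x_at gave -0.0021, Ift122 1427239_at -0.63, Bbs4 1455823_at -0.27, Dync2h1 -0.024 and Mks1 -0.067. With median-centred arrays Ift52 gave 0.50, Kif3b 0.059 and 0.20 at 2 probe sets, and Cc2d2a 0.54. Without 1 ureter, Ift52 ran from -0.40 to 0.058, Ift122 1427239_at from -0.16 to 0.25, Kif17 1422762_at from -0.90 to 0.48, Kif17 1419827_s_at from -0.14 to 0.049, Dync2h1 from -0.0059 to 0.38 and Cc2d2a from -0.30 to 0.022. The cause was not tested for any of these changes.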
